A study of Mus musculus with 4 samples.

Results

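The 10 genes described here encode core parts of transforming growth factor beta (TGF-beta) signalling: the ligands Tgfb1, Tgfb2 and Tgfb3, the receptors Tgfbr1, Tgfbr2 and Tgfbr3, the latent binding proteins Ltbp1 and Ltbp4, and the signal transducers Smad2 and Smad3. They were taken by symbol from the expression table of the study, and all 10 were found among its 23997 genes. All 10 are protein-coding genes in the GENCODE M21 annotation of mm10, the mouse genome build used by the authors, and positions below are from it. The study measured RNA abundance by sequencing of total RNA from cultured lung endothelial cells, the cells that line blood vessels, of C57BL/6 mice grown with serum. Cells were given a control siRNA or one that targets Nr3c1, the gene of the glucocorticoid receptor (GR), over 48 h, and within each siRNA arm either no steroid or dexamethasone (DEX), a synthetic glucocorticoid, at 100 nM over 18 h. The 4 conditions were thus control siRNA, control siRNA + DEX, GR siRNA and GR siRNA + DEX, and every condition shared the strain, the serum and an siRNA treatment.

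TGF-beta ligands are secreted in a latent form, held inactive by their own propeptide and tethered to the extracellular matrix by latent TGF-beta binding proteins (LTBPs). Once released, the ligand binds the type II receptor (Tgfbr2), which recruits and phosphorylates the type I receptor (Tgfbr1); betaglycan (Tgfbr3) is a co-receptor that presents ligand, TGF-beta 2 above all. The type I receptor phosphorylates Smad2 and Smad3, which enter the nucleus with Smad4. In endothelium the pathway is known for its part in matrix production, vessel stability and the transition of endothelial to mesenchymal cells, and a second type I receptor, Acvrl1 (ALK1), works there with the co-receptor endoglin.

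The table held 1 column of FPKM per condition (fragments scaled to transcript length and to the number of fragments sequenced), although the design text speaks of triplicates. Nothing in the sources used here says whether a column is a single library, a mean or a merge. There is therefore no spread between replicates of a condition, and each difference below is between 2 columns, without a test unless one is named. A step shared by low values, read as the value of 1 fragment, put the depth at about 35.0 M, 49.8 M, 51.8 M and 42.6 M fragments (M is 1e6) for control siRNA, control siRNA + DEX, GR siRNA and GR siRNA + DEX, if the annotated transcript lengths are those the authors used. All 12 endothelial markers examined, Pecam1, Cdh5, Kdr and Tie1 among them, were above 1 FPKM in every column. Nr3c1 stood at 14.4, 14.3, 5.45 and 5.32 FPKM in the same order of conditions, so that 37.9% of its level without DEX and 37.1% with DEX remained in the GR siRNA columns. The siRNA labels and the targeted mRNA went together, and the GR siRNA columns describe cells with less GR mRNA, not cells without GR.

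The most abundant of the 10 transcripts were the ligand Tgfb1 and the type II receptor Tgfbr2, with means over the 4 columns of 149 and 83.7 FPKM. Among the 11445 genes that reached 1 FPKM in any column, these levels lay above 94.7% and 89.7% of genes. The order then ran through Ltbp4 (mean 15.5 FPKM), Smad3 (14.8 FPKM), Tgfb3 (12.6 FPKM), Ltbp1 (7.74 FPKM), Smad2 (5.51 FPKM), Tgfbr1 (4.44 FPKM), Tgfb2 (2.05 FPKM) and Tgfbr3 (1.0 FPKM). From Ltbp4 down to Smad2 each gene overlapped the next one in its range over the 4 columns. The order of these neighbours changed with the condition, except that Tgfb3 stood above Ltbp1 in every column. The ranges of Tgfb1, Tgfbr2, Tgfbr1, Tgfb2 and Tgfbr3 overlapped those of no direct neighbour in the order. Tgfbr1 still stood above Ltbp1 with control siRNA (5.01 against 4.53 FPKM), so its place also depends on the condition. In RNA from a whole culture, fewer cells of a type and less RNA per cell cannot be told apart.

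**Figure D1:**
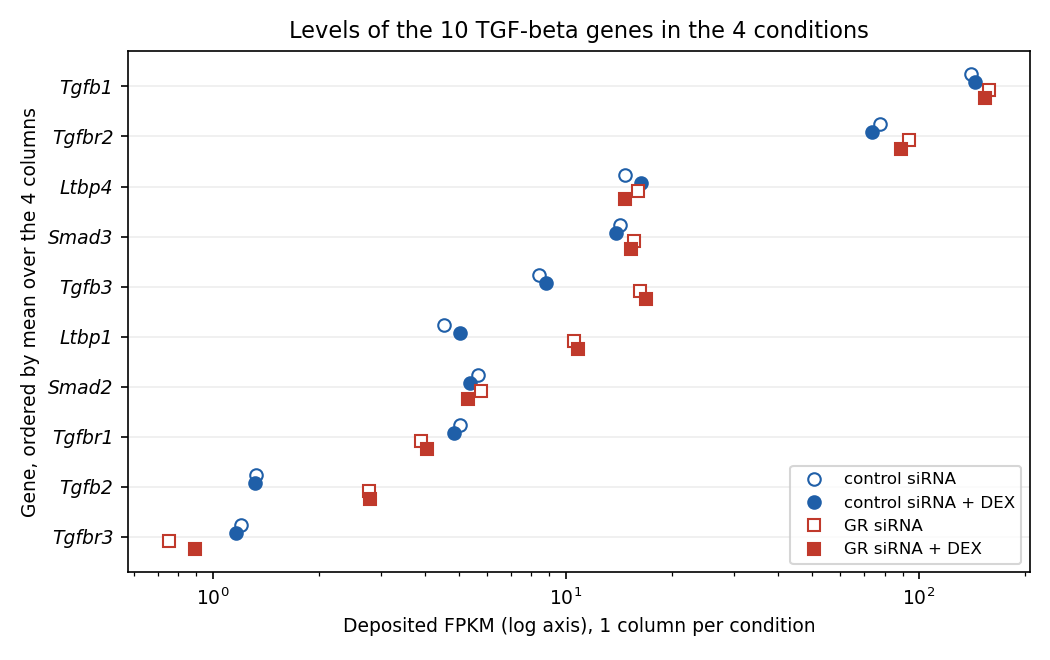
Deposited FPKM on a log axis for each of the 10 genes, with 1 point per condition: blue circles stand for control siRNA and red squares for GR siRNA, and a filled symbol marks DEX. Squares stand clearly right of circles for Tgfb3 (16.2 and 16.9 against 8.42 and 8.78 FPKM), Ltbp1 and Tgfb2, while open and filled symbols of a colour mostly lie close together.

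Among the ligands, the 2 less abundant ones were 1.92-fold to 2.11-fold higher in the GR siRNA columns and the abundant one differed little. Tgfb3, encoding TGF-beta 3 (chromosome 12, 86056745 to 86079041, minus strand, mm10), stood at 8.42 FPKM with control siRNA and 8.78 FPKM when DEX was added. With GR siRNA it stood at 16.2 FPKM, and at 16.9 FPKM when DEX was added. Both GR siRNA columns were above both control columns. The ratio of FPKM was 1.92 without DEX and 1.93 with DEX, and the difference on the log2(FPKM + 1) scale, used for all differences here, was 0.87 in both DEX states. Tgfb2, encoding TGF-beta 2 (chromosome 1, 186622792 to 186705989, minus strand), stood at 1.32 FPKM in both control columns and at 2.77 and 2.79 FPKM in the GR siRNA columns without and with DEX. Its ratios were 2.09 and 2.11, and its log2 differences of 0.70 and 0.71 understate them because the added 1 FPKM weighs on a transcript this rare.

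Tgfb2 is the ligand for which counting error matters most. Taking the shortest annotated coding transcript, its 4 values correspond to about 162, 229, 500 and 414 fragments. The exact Poisson 95% intervals, which cover counting error only, ran from 1.13 to 1.55 and from 1.16 to 1.5 FPKM in the control columns. In the GR siRNA columns they ran from 2.53 to 3.02 and from 2.53 to 3.07 FPKM. Intervals of the 2 siRNA arms did not meet. For Tgfb3 the fragments numbered from about 997 to 2838 per column. An annotated pair of opposite-strand genes, Gm37804 and Gm48008, covers 12.4% of the Tgfb3 exons; neither symbol has a row in the table. The sources used here do not name the strand setting of the counting, so reads of either strand there cannot be told apart.

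Tgfb1, encoding TGF-beta 1, the most widely expressed isoform (chromosome 7, 25687002 to 25705077, plus strand), stood at 140, 145, 158 and 154 FPKM across control siRNA, control siRNA + DEX, GR siRNA and GR siRNA + DEX. It was 12.5% higher with GR siRNA without DEX and 6.69% higher with DEX. Its 4 columns lay within a factor of 1.12. Summed over the 3 ligands, FPKM was 150 and 155 in the control columns and 177 and 174 in the GR siRNA columns. Tgfb3 supplied 5.61% of that sum with control siRNA and 9.16% with GR siRNA, and 5.68% and 9.73% with DEX. Tgfb1 still supplied 89.3% with GR siRNA and 88.7% with GR siRNA + DEX, so the ratio of Tgfb1 to Tgfb3 was 16.7 and 16.5 in the control columns and 9.75 and 9.11 in the GR siRNA columns.

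Of the latent binding proteins, Ltbp1 had the largest siRNA difference of the 10 genes and Ltbp4 had none of note. Ltbp1, which binds the latent complexes of the ligands and anchors them to matrix (chromosome 17, 75005568 to 75392512, plus strand), stood at 4.53 and 5.02 FPKM with control siRNA, without and with DEX, and at 10.6 and 10.8 FPKM with GR siRNA. The GR siRNA columns were 2.34-fold and 2.16-fold above their controls, with log2 differences of 1.07 and 0.97. Only 75 of 11325 genes without DEX, and 69 of 11344 with DEX, had a larger difference upward. Ltbp4, a binder of latent TGF-beta 1 that also serves elastic fibre assembly (chromosome 7, 27305136 to 27337692, minus strand), stood at 14.8, 16.3, 16.1 and 14.8 FPKM. It was higher with GR siRNA without DEX (log2 difference 0.11) and lower with DEX (−0.14).

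The other family members were read beside them. Ltbp3 stood at 14.1, 16.2, 13.4 and 12.5 FPKM and Ltbp2, which does not bind latent TGF-beta, was at 0.104 FPKM or below in every column. Ltbp1 made up 13.5% and 13.3% of the summed LTBP FPKM in the control columns and 26.4% and 28.3% in the GR siRNA columns. The sum itself was 33.5, 37.6, 40.1 and 38.2 FPKM.

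**Figure D2:**
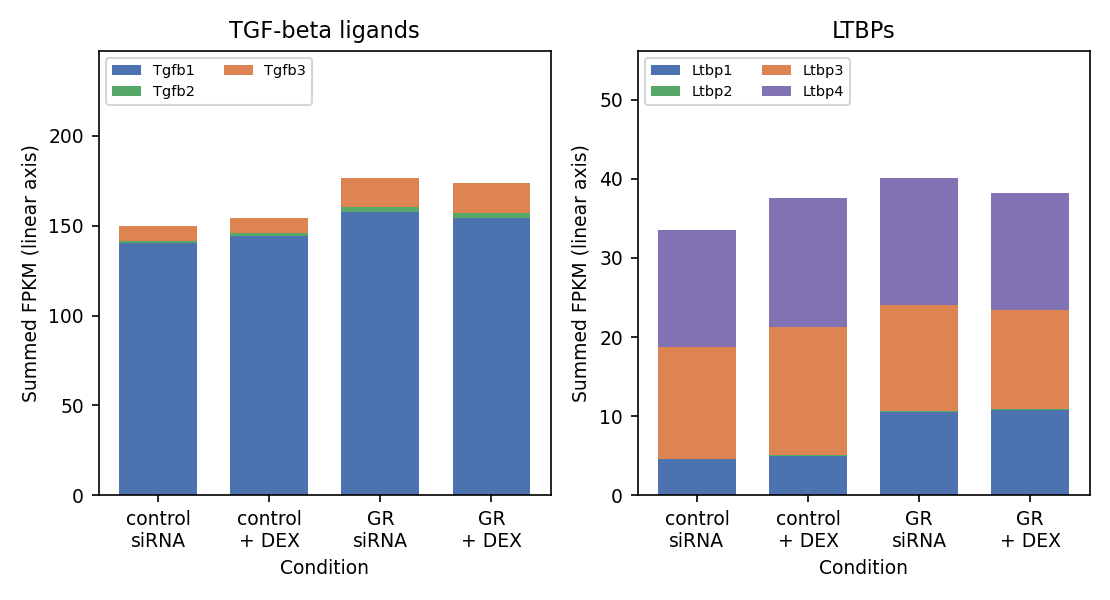
Stacked bars of FPKM on linear axes that start at 0, for the 3 ligands (left) and the 4 LTBPs (right) in the 4 conditions. The Tgfb3 and Ltbp1 segments are thicker in the GR siRNA bars, where Ltbp1 makes up 26.4% and 28.3% of the LTBP sum, and Tgfb1 fills most of every ligand bar.

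Tgfb2 and Ltbp1 stood higher in the same columns, and the bases before their start sites are shown here for that reason, from RefSeq on GRCm38.p6, the same assembly as mm10. The 250 bases before each start are given on the strand of the gene, 5′ to 3′, with capitals on matches to CACGTG, an E-box, to TATAAA, a core promoter box, to TGACGTCA, the cyclic AMP response element, and to CAGACA, a core of SMAD binding elements, which reads TGTCTG on the other strand. Ltbp1 has 2 starts in RefSeq.
Tgfb2, chr1:186705990-186706239, minus strand: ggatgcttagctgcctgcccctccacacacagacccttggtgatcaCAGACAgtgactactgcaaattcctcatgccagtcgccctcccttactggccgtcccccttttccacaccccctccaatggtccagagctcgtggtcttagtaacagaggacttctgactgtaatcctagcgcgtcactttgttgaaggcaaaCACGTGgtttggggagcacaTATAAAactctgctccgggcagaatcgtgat
Ltbp1 first start, chr17:75005279-75005528, plus strand: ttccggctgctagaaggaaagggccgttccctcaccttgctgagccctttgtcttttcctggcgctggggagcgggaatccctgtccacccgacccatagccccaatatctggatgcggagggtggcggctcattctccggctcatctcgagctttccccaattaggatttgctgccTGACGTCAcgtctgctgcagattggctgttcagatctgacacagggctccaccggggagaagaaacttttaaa
Ltbp1 second start, chr17:75178531-75178780, plus strand: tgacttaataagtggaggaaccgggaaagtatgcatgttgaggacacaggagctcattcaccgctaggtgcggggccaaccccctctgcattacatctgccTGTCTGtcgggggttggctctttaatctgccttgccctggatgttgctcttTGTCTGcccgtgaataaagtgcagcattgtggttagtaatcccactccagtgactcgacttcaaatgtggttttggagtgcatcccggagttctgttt
The Tgfb2 window holds a TATAAA whose first base lies 31 bases before the start, an E-box 51 bases before and a CAGACA 204 bases before. The first Ltbp1 window holds the cyclic AMP response element 73 bases before the start, and the second holds TGTCTG at 149 and 98 bases; no match overlaps another. CAGACA was also found in the second window of Tgfbr1, 203 bases before the start, and Tgfbr1 was lower with GR siRNA. Over 32841 promoter windows of the same length, searched on both strands, 12.4% hold TATAAA, 6.02% CACGTG, 17.1% CAGACA and 1.55% TGACGTCA. Neither the palindromic GR response element, in its perfect consensus present in 3 of all windows, nor a single arm of it, AGAACA, present in 16.1%, matched in any of the 11 windows found for 7 of the 10 genes. None of these windows held the SMAD palindrome GTCTAGAC (0.167% of all windows) or the AP-1 site TGANTCA (6.75%) either. Tgfb3, Tgfbr3 and Smad2 had no entry. GGGCGG, a GC box, was in windows of Tgfb1, Tgfbr1, Ltbp4 and Smad3 and is in 32.7% of all windows. These are matches of letters and say nothing about binding. The table gives a single value per gene, so use of the 2 Ltbp1 starts cannot be told apart.

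The receptors went in different directions with GR siRNA. Tgfbr2, the ligand-binding type II receptor (chromosome 9, 116084293 to 116175360, minus strand), stood at 77.9, 73.6, 94.0 and 89.2 FPKM across control siRNA, control siRNA + DEX, GR siRNA and GR siRNA + DEX. Both GR siRNA columns were above both controls, by 20.8% without DEX and 21.2% with DEX (log2 differences 0.27 and 0.27). Tgfbr1, the type I receptor ALK5 (chromosome 4, 47353222 to 47414931, plus strand), stood at 5.01, 4.83, 3.90 and 4.05 FPKM. Both GR siRNA columns were below both controls, with log2 differences of −0.29 and −0.21. Tgfbr3, the betaglycan gene (chromosome 5, 107106570 to 107289629, minus strand), stood at 1.21, 1.17, 0.753 and 0.891 FPKM, again lower in both GR siRNA columns, with log2 differences of −0.33 and −0.20.

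None of these 3 receptor differences reached 1.5-fold on the log2(FPKM + 1) scale. For Tgfbr3 the ratio of FPKM was 0.624 without DEX and 0.763 with DEX, so without DEX the added 1 FPKM decides on which side of 1.5-fold it falls. Its exact Poisson 95% intervals were 1.06 to 1.36 and 1.05 to 1.30 FPKM in the control columns against 0.66 to 0.85 and 0.78 to 1.01 FPKM in the GR siRNA columns, without contact between arms. For Tgfbr1 the interval with control siRNA, 4.46 to 5.61 FPKM, did not reach that with GR siRNA, 3.50 to 4.33 FPKM. With DEX the intervals were 4.37 to 5.32 and 3.60 to 4.53 FPKM and overlapped. These rest on the shortest coding transcript of Tgfbr1, 1713 nt; with the longest, 5756 nt, the intervals with DEX were 4.58 to 5.09 and 3.80 to 4.31 FPKM and did not overlap. The ratio of Tgfbr2 to Tgfbr1 transcripts was 15.6 and 15.2 in the control columns and 24.1 and 22.0 in the GR siRNA columns.

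The receptor-regulated SMADs were nearly level. Smad3 (chromosome 9, 63646767 to 63757994, minus strand), which binds DNA directly, stood at 14.2, 13.9, 15.6 and 15.3 FPKM, with both GR siRNA columns above both controls by 9.34% and 9.70%. Smad2, its partner in carrying the TGF-beta signal (chromosome 18, 76241580 to 76310963, plus strand), stood at 5.64, 5.36, 5.75 and 5.28 FPKM and had log2 differences of 0.02 without DEX and −0.02 with DEX. Its GR siRNA and control values overlapped. The ratio of Smad3 to Smad2 was 2.52, 2.60, 2.71 and 2.89.

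Taking the 10 genes as a list, 3 were at least 1.5-fold higher with GR siRNA and none was 1.5-fold lower, in each DEX state. The 3 were Tgfb2, Tgfb3 and Ltbp1 both times. Without DEX, 2.36% of all 11325 genes tested passed 1.5-fold upward and 2.54% downward, and with DEX these shares were 2.36% and 2.62% of 11344. Over both DEX states at once, 1.4% of 11224 genes were 1.5-fold higher, and 1.64% 1.5-fold lower. The median siRNA difference over the 10 genes was 0.14 without DEX and 0.11 with DEX, beside −0.01 and −0.01 over all genes tested. The comparisons without and with DEX share no column. With a threshold of 2-fold on the same scale, Ltbp1 without DEX was the single gene of the 10 left, beside 0.786% of all genes without DEX and 0.573% with DEX that were higher.

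A test was had from an additive model over the 4 columns, fitted with limma to all 11445 genes on log2(FPKM + 1), in which the siRNA difference was taken as equal in both DEX states. The model leaves 1 residual degree of freedom, and the error of a gene comes from the disagreement between the DEX states. limma draws it toward a trend over all genes, with 2.75 prior degrees of freedom, so each standard error and p-value rests largely on other genes. Neither part is a spread between cultures treated separately, so the p-values may be too small. Tgfb3 was higher with GR siRNA by 0.87 ± 0.04 (SE; limma adjusted p = 0.0105), Ltbp1 by 1.02 ± 0.05 (limma adjusted p = 0.0105) and Tgfb2 by 0.70 ± 0.07 (limma adjusted p = 0.0154). Tgfbr2, higher by 0.27 ± 0.04, was the other member to pass (limma adjusted p = 0.0268). Tgfbr1 did not pass, with −0.25 ± 0.06 (limma adjusted p = 0.0552), and neither did Tgfbr3 with −0.26 ± 0.09 (limma adjusted p = 0.113), Tgfb1 (0.122), Smad3 (0.113), Ltbp4 (0.926) or Smad2 (0.971). Of all genes, 9.45% passed as higher and 11.7% as lower in this fit, so 4 of 10 higher and none lower stand beside a wide background.

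**Figure D3:**
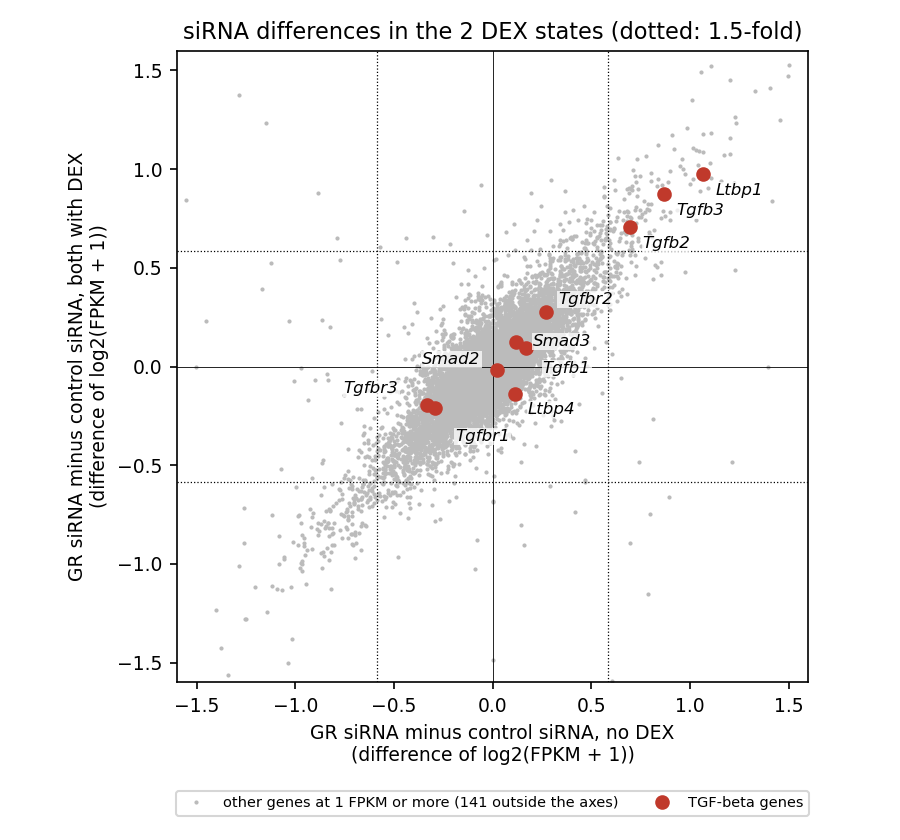
Difference of log2(FPKM + 1) between GR siRNA and control siRNA without DEX (horizontal) and with DEX in both arms (vertical), with grey points for genes at 1 FPKM or more, red points for the 10 TGF-beta genes and dotted lines at 1.5-fold. Ltbp1 (1.07 and 0.97), Tgfb3 (0.87 and 0.87) and Tgfb2 (0.70 and 0.71) lie in the upper right field past both lines, and the other 7 lie inside the lines.

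Markers of mesenchymal cells, which also express Tgfb2, Tgfb3 and Ltbp1, were read beside these genes. Of 13 markers of fibroblasts, smooth muscle and pericytes, 2 reached 1 FPKM in the control columns (Acta2 and Tagln), and Dcn joined them in the GR siRNA columns, and the summed level of the 13 was 16.1 and 14.5 FPKM against 20.7 and 19.0 FPKM. Rgs5, a pericyte marker, was listed at 0 in every column, and Col1a2 was at 0.0141 FPKM or below. Below 1 FPKM, further markers were higher in both GR siRNA columns than in both controls. How many of all genes at such levels do the same was not counted, and the lowest values rest on few fragments. Pdgfra stood at 0.16 and 0.131 against 0.352 and 0.308 FPKM, and Col1a1 at 0.127 and 0.113 against 0.466 and 0.230 FPKM. Cspg4 stood at 0.0564 and 0.0579 against 0.218 and 0.135 FPKM, and Lum at 0.0139 and 0 against 0.131 and 0.104 FPKM. Myh11, at 0.0245 and 0.0142 against 0.0437 and 0.0337 FPKM, and Col1a2, at 0.0105 and 0 against 0.0141 and 0.0131 FPKM, were near 0. Pdgfrb stood at 0.20, 0.202, 0.282 and 0.203 FPKM, nearly level with DEX. Dcn, a small matrix proteoglycan, stood at 0.39, 0.30, 1.99 and 2.73 FPKM. Acta2 stood at 5.65, 5.6, 8.82 and 7.71 FPKM. Tagln, with 8.76, 7.48, 7.87 and 7.04 FPKM, and Cnn1, with 0.657, 0.550, 0.509 and 0.447 FPKM, were lower with GR siRNA in each DEX state. Dcn, Acta2, Pdgfra, Col1a1, Cspg4, Lum, Myh11 and Col1a2 moved with Tgfb2, Tgfb3 and Ltbp1, and the part of these markers in the result was not tested.

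The summed level of the 12 endothelial markers was 2987 FPKM in both control columns and 2734 and 2659 FPKM in the GR siRNA columns without and with DEX. Without DEX 10 of the 12 were lower with GR siRNA, and with DEX 7 of the 12. Of all genes tested, 47.2% were higher without DEX and 48.2% with DEX, so 7 of 12 lower is near the share of all genes. Cldn5, a tight junction protein, stood at 493, 525, 368 and 332 FPKM (differences of −0.42 and −0.66, past 1.5-fold with DEX), and Egfl7, a secreted endothelial factor, at 521, 516, 424 and 410 FPKM. Cdh5, the endothelial cadherin, stood at 436, 415, 411 and 384 FPKM and the adhesion molecule Esam at 369, 371, 382 and 373 FPKM, while Pecam1 lay between 275 and 282 FPKM. The part of Cldn5 and Egfl7 in the results above was not tested. Of 9 epithelial markers, 1 or 2 reached 1 FPKM in a column, with Krt18 at most 4.48 FPKM, Sftpb at most 1.13 FPKM, Nkx2-1 at most 0.564 FPKM, Krt8 at most 0.0873 FPKM and Epcam at 0.0116 FPKM or below. Of 10 leukocyte and platelet markers, Cd68, which lysosome-rich cells of other kinds also express, stood at 176, 161, 194 and 218 FPKM and Pf4, a platelet gene, at 5.89, 5.15, 8.08 and 8.68 FPKM, while Itga2b reached at most 1.06 FPKM and Csf1r at most 0.366 FPKM, and Ptprc and Cd3e were listed at 0 in every column. Of 5 markers of lymphatic endothelium, Lyve1 (373, 348, 191 and 192 FPKM) and Flt4 (28.0, 27.2, 20.3 and 17.9 FPKM) were above 1 FPKM, and Prox1, which defines that cell type, was at 0.12 to 0.179 FPKM, with Pdpn at 0.027 FPKM or below. Lyve1 and Flt4 were lower, and Pf4 and Cd68 higher, where Tgfb2, Tgfb3 and Ltbp1 were higher, and their part was not tested.

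With DEX none of the 10 genes differed by 1.5-fold in either siRNA arm. In the additive limma fit none passed for DEX either, at an adjusted or an unadjusted p under 0.05. Over all 11445 genes, 416 passed unadjusted, a share below 0.05, and 0.0175% passed as higher and 0.00874% as lower after adjustment. At shares this small, none of 10 passing does not set these genes apart. That fit takes the DEX difference as equal in both siRNA arms. A difference present in a single arm is averaged down and adds to the error of the fit. In control siRNA cells the differences ran from −0.08 (Tgfbr2) to 0.14 (Ltbp4), with a median of −0.01 beside −0.01 over all 11227 genes tested. In GR siRNA cells they ran from −0.11 (Ltbp4) to 0.06 (Tgfb3) over the 9 genes that passed the filter, with a median of −0.03 beside 0.00 over 11310 genes. Tgfbr3, below 1 FPKM in both columns there, was 0.11 higher with DEX. Few genes of the whole table passed 1.5-fold with DEX: 0.686% higher and 0.392% lower in control siRNA cells, and 0.531% and 0.645% in GR siRNA cells. Each DEX comparison shares columns with the siRNA comparisons.

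For the 3 genes with the siRNA difference, DEX left little mark in either arm. Tgfb3 was 4.28% higher with DEX in control siRNA cells and 4.57% higher in GR siRNA cells. Tgfb2 differed by −0.20% and 0.75%. Ltbp1 was 10.8% higher with DEX in control siRNA cells and 2.26% higher in GR siRNA cells. The siRNA difference with DEX minus that without DEX was 0.01 for Tgfb3, 0.01 for Tgfb2 and −0.09 for Ltbp1. Ltbp4 had the widest gap of the 10 genes on this measure, −0.25; 418 of 11445 genes had a lower one. None of the 10 reached 1.5-fold on it, beside 1.71% of all genes in either direction.

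**Figure D4:**
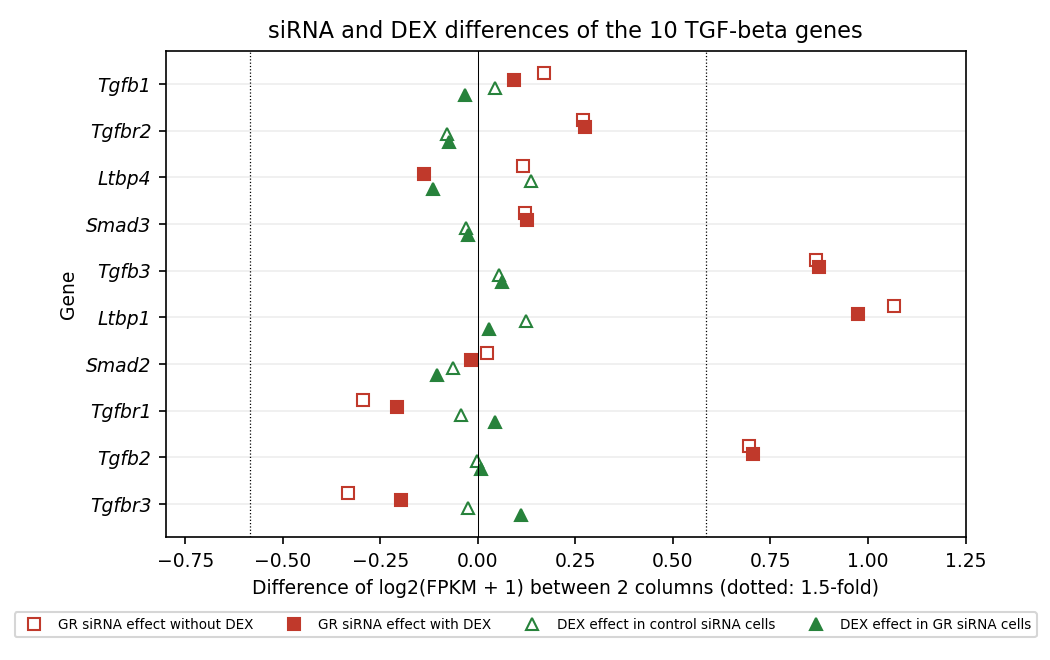
Differences of log2(FPKM + 1) for the 10 genes: red squares are GR siRNA against control siRNA, green triangles DEX against no DEX, and dotted lines mark 1.5-fold. Triangles stay between −0.11 and 0.14, while squares of Ltbp1, Tgfb3 and Tgfb2 lie past the right line in both DEX states.

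The rest of the pathway was read from lists of other TGF-beta genes. Of 22 genes that store, release or bind latent TGF-beta, 14 reached 1 FPKM in each siRNA comparison, 2 were at least 1.5-fold higher (Mmp2 and Dcn) and 1 lower (Itgb3) in both DEX states, beside 1.4% higher and 1.64% lower in both states over all genes. Dcn passed the filter only through the GR siRNA columns (1.99 and 2.73 FPKM, against 0.39 and 0.30 FPKM in the controls), so its call is no independent support. The list medians were −0.01 and 0.00. Mmp2, a gelatinase able to release latent TGF-beta, stood at 26.8, 27.4, 44.3 and 41.8 FPKM, so the GR siRNA columns were the higher ones. Itgb3, the beta 3 subunit that pairs with the alpha v integrin and binds latent complexes, stood at 106, 108, 64.5 and 57.5 FPKM, the reverse. Lrrc32 (GARP), which holds latent TGF-beta on the cell surface, was at 158, 152, 137 and 125 FPKM. The integrin subunit Itgb1 lay between 277 and 286 FPKM and the membrane protease Mmp14 between 199.6 and 233 FPKM. Fbn1, the microfibril protein to which LTBPs attach, was at 0.60, 0.42, 1.33 and 1.07 FPKM, above in the GR siRNA columns at a low level.

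Of 13 other receptors and co-receptors of the family, Nrp1 alone passed 1.5-fold, in both DEX states, among 10 tested without DEX and 9 with DEX, and upward, as 1.4% of all genes did in both states. Nrp1, a co-receptor for VEGF and semaphorins that also binds TGF-beta 1, had differences of 0.90 and 0.78. Acvrl1 stood at 221, 228, 227 and 220 FPKM and endoglin (Eng) at 148, 154, 150 and 148 FPKM, both without a siRNA difference over 0.07. Acvrl1 thus exceeded the other type I receptor, Tgfbr1, 44.1-fold with control siRNA and 58.1-fold with GR siRNA. Cd109, a co-receptor that dampens TGF-beta signalling, was at 31.8, 30.9, 25.5 and 25.9 FPKM.

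Of 13 other SMADs and cofactors, 11 were tested, none was 1.5-fold higher, and Smad1 was lower in both DEX states, as were 1.64% of all genes. Smad1, which carries BMP signals and in endothelium those of Acvrl1, stood at 46.6, 45.2, 29.1 and 25.7 FPKM. Smad4, the common partner, was at 21.7, 22.2, 21.1 and 20.9 FPKM, and Smad5 between 22.0 and 24.1 FPKM. Tgif1, a corepressor of SMADs, lay between 27.7 and 30.5 FPKM. Among 16 feedback inhibitors and regulators of receptor turnover, all tested, Pmepa1 with DEX (12.5 against 7.98 FPKM) was the single 1.5-fold difference, beside 2.62% of all genes lower with DEX. Smad6, an inhibitory SMAD, stood at 102, 114, 82.5 and 77.4 FPKM, and Smad7, the inhibitory SMAD that TGF-beta induces, at 33.0, 34.1, 31.6 and 25.9 FPKM; neither passed 1.5-fold. Fkbp1a, whose product holds the type I receptor silent, was at 990, 992, 825 and 829.5 FPKM. Usp15, a deubiquitinase that acts on the receptor complex, lay between 49.8 and 52.5 FPKM, and Strap, a receptor-binding inhibitor, between 104.9 and 108 FPKM.

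Transcripts known to rise with TGF-beta did not go one way. Of 36 listed, 29 were tested in each DEX state; 3 were at least 1.5-fold higher in both (Col5a1, Eln and Angptl4), Cdkn1a was lower in both and Pmepa1 lower with DEX. Over all genes, 1.4% were higher and 1.64% lower in both states. The list medians were 0.00 without DEX and 0.07 with DEX, beside −0.01 and −0.01 over all genes. Col5a1, a chain of fibrillar collagen, stood at 2.50, 2.26, 5.42 and 4.53 FPKM. Tgfbi, named for its induction by TGF-beta, was at 24.4, 24.6, 22.4 and 22.1 FPKM. Cdkn1a, the cell cycle inhibitor p21, was at 92.8, 99.2, 60.0 and 61.8 FPKM. Col4a1, a basement membrane collagen, was at 464, 456, 561 and 487 FPKM, and its partner chain Col4a2 at 259.9, 256, 310.1 and 283 FPKM. Vim, the mesenchymal intermediate filament also found in endothelium, lay between 1892 and 1981 FPKM, and the growth factor gene Pdgfb stood at 77.9, 75.3, 93.5 and 79.7 FPKM.

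**Figure D5:**
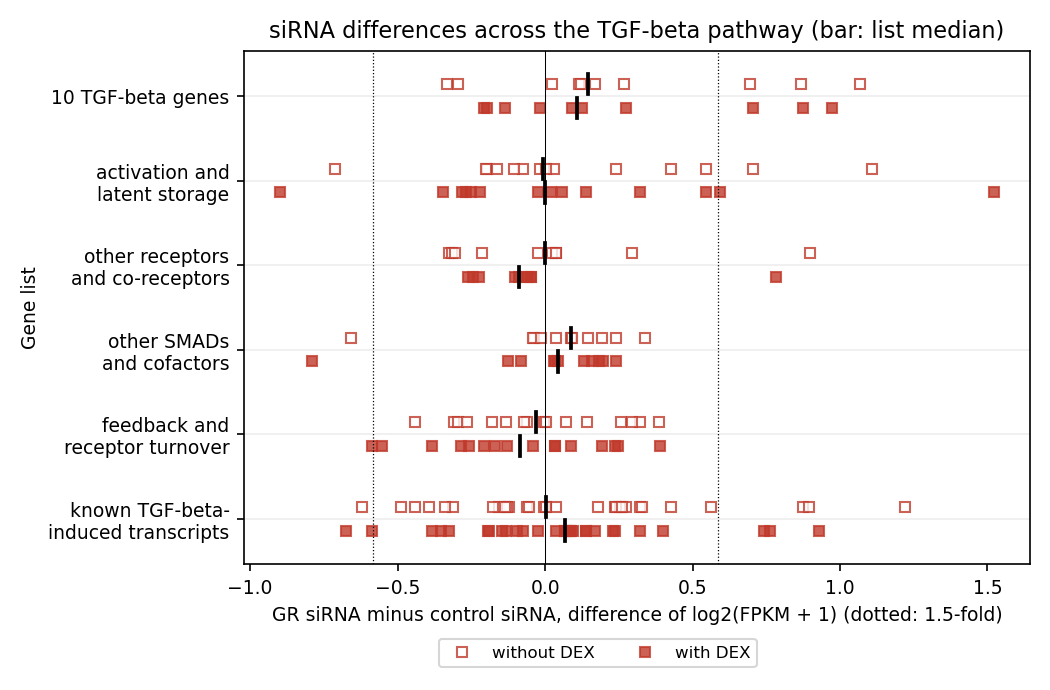
GR siRNA minus control siRNA on log2(FPKM + 1) for each gene at 1 FPKM or more in the columns compared, by list, where filled squares are with DEX and open ones without, black bars mark list medians and dotted lines 1.5-fold. List medians lie between −0.09 and 0.14, and few genes of any list are past the lines; the far right point of the second row is Dcn with DEX (1.52).

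The genes whose pattern over the 4 columns was most like that of Ltbp1 were Pltp, Tmem40, Anxa6, Thbs2 and Col8a1, out of 8642 candidates of at least 5 FPKM. Likeness was the Euclidean distance between log2(FPKM + 1) values centred on each gene's own mean, and it ran from 0.05 to 0.09 for these 5. Pltp, which encodes a phospholipid transfer protein, stood at 50.2, 57.4, 109 and 112 FPKM. Thbs2, a matrix protein of the thrombospondin family, stood at 47.3, 49.3, 100.2 and 106 FPKM. Of the other 9 TGF-beta genes, Tgfb3 was nearest to Ltbp1 (distance 0.16, with 16 candidates closer), followed by Tgfb2 (0.33, with 57 closer). With 4 columns this likeness mostly reads the size of the siRNA difference.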

How the data were processed

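RNA sequencing of total RNA gave 1 table for 4 samples, 1 per condition. Its values are FPKM per gene, made by the authors with TopHat2 and Cuffdiff on mm10, per the submitters' processing notes; the sources used here do not give versions, annotation, strand setting or the treatment of replicates. FPKM divides by length and depth, and reads shared between genes are assigned by an estimate; at most 9.96% of the 31-mers of any of the 10 genes occur in another annotated gene (GENCODE M21, mm10).

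Differences were taken between columns on log2(FPKM + 1) over genes of at least 1 FPKM in either column, and counted at 1.5-fold. With 1 column per condition a single comparison has no test. An additive siRNA + DEX fit with limma 3.58.1 (R 4.3.3; mean trend, Benjamini-Hochberg adjustment over 11445 genes, 1 residual degree of freedom) was added after seeing the data, and cannot test the difference between DEX states. The value of a single fragment was the mode of FPKM times length over low values of 2965 genes with 1 transcript, where 92 to 125 genes per column fell, so depths and fragments are approximate. Its product with the shortest coding transcript gave fragments per gene and exact Poisson intervals. Fold counting, the additive fit and the single-fragment step were tested on simulated data. Alternatives were another pseudocount, 2 other filters, 2 rescalings and a 2-fold threshold. The additive fit, counted by adjusted p, was also set beside the fold counts. Python 3.11.15 with numpy 2.4.6, pandas 2.3.3 and scipy 1.17.1 was used.

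The 10 genes and the other lists, with 137 symbols in 10 lists, were chosen with earlier results of these data known. Named were the 10 genes, Nr3c1, list members 1.5-fold apart in both DEX states, the 4 most abundant of each list, defining markers and the 5 genes nearest in pattern to the gene with the largest mean siRNA difference, leaving out predicted genes, clone names and small RNAs. Outside that rule, Ltbp2, Ltbp3, Fbn1, Smad7, Pmepa1 and Tgfbi were chosen after their values were seen. The values of 1 listed gene are not reported here.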

Additional observations from a re-analysis of the deposited data

Results flagged for a closer look

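In 2 genes the siRNA difference pointed opposite ways in the 2 DEX states, with 1 column per condition and no test of the gap. For Ltbp4 it was 0.11 without DEX and −0.14 with DEX, and for Smad2 it was 0.024 and −0.018. In 4 of the genes that passed the filter in both arms the DEX difference pointed opposite ways in the 2 siRNA arms, also untested. It was 0.14 in control siRNA cells and −0.11 in GR siRNA cells for Ltbp4, which uses the same 4 values as its siRNA gap. It was 0.043 and −0.033 for Tgfb1, −0.043 and 0.043 for Tgfbr1, and −0.0017 and 0.0079 for Tgfb2. After upper quartile rescaling the value in control siRNA cells was above 0 for Tgfbr1 (0.037) and Tgfb2 (0.053), so the opposite signs of these 2 genes were lost. Tgfbr3, below the filter in GR siRNA cells, also had opposite signs (−0.03 and 0.11). The gap for Ltbp4, −0.25, is the widest of these.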

How the results depend on the processing

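No paired analysis was possible because each condition has 1 column with the same replicate number, and for the same reason no replicate could be left out; the additive fit, with the DEX state as its block, was added after seeing the data. Of 93 alternative values for the counts and medians, 90 held, medians within 0.1 on the log2 scale and counts within 1.5 times. The main medians for DEX and for the gap between DEX states were smaller than this tolerance, and their counts were 0 under every setting. These values had little room to fail, and medians near 0 changed sign within the tolerance. In control siRNA cells the DEX median was −0.01, and 0.06 after upper quartile rescaling. The 93 values include the additive fit, whose counts of genes passing an adjusted p are another measure than fold counts. At the 2-fold threshold the members higher with GR siRNA numbered 1 without DEX and 0 with DEX. With a pseudocount of 0.1 FPKM, 1 member (Tgfbr3, −0.62) was past 1.5-fold lower without DEX, and the differences without and with DEX were 1.01 and 1.02 for Tgfb2 and 1.21 and 1.09 for Ltbp1. Signs of the single-gene siRNA differences held in 94 of 95 alternative values, the exception being Smad2 with DEX after median rescaling, signs of the DEX differences in 84 of 91, and signs of the gap between DEX states in 44 of 48. Neither the pseudocount nor a filter can turn the sign of a difference between 2 columns. For the siRNA and DEX differences, only the 2 rescalings could therefore change a sign, and most of these values had to hold. The DEX signs that changed were in control siRNA cells, for Tgfb2 under both rescalings and for Tgfbr1, Tgfbr2, Tgfbr3, Smad2 and Smad3 under the upper quartile one, which also turned the gaps of Tgfb2, Tgfb3, Tgfbr2 and Smad3. Among genes of at least 5 FPKM, Tgfb2 and Tgfbr3, and Tgfbr1 in the siRNA comparison with DEX and the DEX comparison in GR siRNA cells, had no value. Depth limits Tgfb2 and Tgfbr3 most, at about 162 to 500 fragments a column with the shortest coding transcripts; Tgfbr1 and Smad2 had 258 to 412 with the shortest and 993 to 2411 with the longest.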
